A study of Mus musculus with 12 samples.

Results

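Expression of the major histocompatibility complex (MHC) class II genes was measured in alveolar macrophages, the resident phagocytes of the airspace, of mice lacking the transcription factor Bach1, its relative Bach2, or both. The members are 9 genes: H2-Aa, H2-Ab1 and H2-Eb1 (class II chains), Cd74 (invariant chain), H2-DMa, H2-DMb1, H2-DMb2 and H2-Oa (peptide exchange), and Ciita (class II transactivator). A member was any non-control probe whose accession names one of these genes, and the brightest probe stood for each gene. All 9 were found, out of 20018 genes that a probe names through RefSeq, and all 9 were well above background on every one of the 12 arrays. The pattern of class II levels that are low in Bach1 KO but not in the double knockout was known from these data when the genes were chosen. Bach1 KO against WT, DKO against Bach1 KO and the interaction, all described below, are therefore descriptions of that pattern. Their test values are not independent evidence of it.

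The groups were wild type (WT), Bach1 KO (B1 KO in the labels), Bach2 KO (B2 KO) and the Bach1/Bach2 double knockout (DKO; B1/B2 DKO, DD in the titles), each with 3 female C57BL/6 mice aged 8 to 9 weeks. The labels give no allele, promoter or Cre, and no treatment beyond the genotype. Cells came from bronchoalveolar lavage and were sorted by flow cytometry, and each mouse gave 1 one-colour Agilent array, so the spread is that between mice. In RNA from a sorted population, fewer cells of a type and less RNA per cell cannot be told apart.

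MHC class II molecules are pairs of an alpha and a beta chain that carry peptides from swallowed proteins to the cell surface, where CD4+ T cells read them. H2-Aa encodes the alpha chain and H2-Ab1 the beta chain of the I-A molecule. H2-Eb1 encodes the beta chain of I-E, which C57BL/6 mice do not show at the surface because they lack a functional H2-Ea. The invariant chain, Cd74, fills the groove during transport. The H2-DM dimer (H2-DMa with H2-DMb1 or H2-DMb2) exchanges the remnant of Cd74 for a peptide, and H2-O (H2-Oa with H2-Ob) restrains H2-DM. Ciita is a coactivator that binds no DNA itself. It is recruited by factors sitting on the X and Y boxes of class II promoters. Bach1 and Bach2 are repressors that bind elements related to the AP-1 site with small Maf proteins.

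The promoters were searched for letters of the X and Y boxes, and are given as a description of the sequence. Promoter entries (RefSeq, GRCm38.p6, 250 bases before to 50 after the start) were matched for 6 of the 9 members. H2-Ab1, Cd74 and Ciita had no entry. Of the non-members in the same region, H2-Ob and H2-Eb2 are shown for comparison. Each window of 63 bases is written 5′ to 3′ on the gene's strand, and capitals mark the X box letters AACNNATG and the Y box letters TGATTGG, the inverted CCAAT sequence.
H2-Aa, chr17:34287859-34287921, minus strand: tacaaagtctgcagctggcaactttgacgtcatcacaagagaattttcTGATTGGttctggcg
H2-Eb1, chr17:34305758-34305820, plus strand: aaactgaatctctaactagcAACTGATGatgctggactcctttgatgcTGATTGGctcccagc
H2-DMb1, chr17:34153080-34153142, plus strand: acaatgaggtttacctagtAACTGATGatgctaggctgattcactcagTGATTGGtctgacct
H2-DMb2, chr17:34145109-34145171, plus strand: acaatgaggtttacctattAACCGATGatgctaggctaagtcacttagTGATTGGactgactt
H2-Oa, chr17:34092286-34092348, plus strand: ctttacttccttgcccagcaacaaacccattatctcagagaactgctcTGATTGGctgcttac
H2-Ob, chr17:34238798-34238860, plus strand: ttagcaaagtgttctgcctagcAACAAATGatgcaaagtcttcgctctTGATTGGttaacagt
H2-Eb2, chr17:34325525-34325587, plus strand: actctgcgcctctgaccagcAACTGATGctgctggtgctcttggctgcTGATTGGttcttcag

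The Y box letters were in the promoters of 5 of the 6 matched members, H2-DMa being the exception, and in 7.82% of all 32851 promoters, searched on both strands. The X box letters were in 3 members, H2-Eb1, H2-DMb1 and H2-DMb2, and in 8.86% of all promoters. An X box followed by a Y box with 10 to 25 bases between them was found in 9 of the 32851 promoters (0.0274%), of which 5 are class II genes: H2-Eb1, H2-DMb1, H2-DMb2, H2-Ob and H2-Eb2. The other 4 were AU016765, BC051142, H2-M10.4 and Tnfrsf9. The AP-1-like letters TGANTCA were in 2 members, H2-DMb1 and 1 of the 2 H2-DMa promoters, and in 7.81% of all promoters. The H2-DMb1 match (the letters tgattca) overlaps no X or Y box in the window above. The H2-DMb1 and H2-DMb2 windows, from a pair of neighbouring beta chain genes, are identical at 56 of 63 bases, and H2-Eb1 and H2-Eb2 at 43 of 63. The letters were chosen after these promoters had been read, and a match is a description of the sequence, not a measured site.

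On the arrays, 45.2% to 72.4% of the spots that are not controls were well above background, and none was saturated. Levels are log2 of the processed signal minus the array's 75th percentile, so 0 is the signal at that percentile and 1 unit is a doubling. They depend on each probe as well as on its gene, and are not compared between genes. Every WT and Bach1 KO array and 2 Bach2 KO arrays (mice 1 and 2) were on 1 slide, Bach2 KO mouse 3 was on another, and all 3 DKO arrays were on a slide of their own that was scanned on a later day. A DKO difference therefore cannot be told apart from that slide. WT mouse 3 (at 123) and Bach1 KO mouse 3 (at -75.9) stood apart from all other arrays on the third principal component, in opposite directions. Bach1 KO mouse 3 also had the lowest share of spots well above background (45.2%). Bach1 was between 3.72 and 4.28 in WT, 2.40 and 2.55 in Bach1 KO, 3.81 and 4.12 in Bach2 KO, and 1.72 and 3.13 in DKO. The Bach1 knockouts were thus below the other mice without overlap, by 1.43 ± 0.32 (SE) in Bach1 KO against WT, although its adjusted p was 0.304. It passed in DKO against WT (adjusted p = 0.00893). The Bach2 probe was near background (from -8.13 in WT mouse 3 to -2.18 in WT mouse 2) and did not check the Bach2 labels.

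The class II chains and Cd74 had 3 levels: lowest in Bach1 KO, intermediate in WT, and highest in Bach2 KO and DKO. H2-Aa, the alpha chain gene of I-A, was at 3.18, 3.76 and 2.19 in the WT mice, -2.36, -0.53 and -0.58 in Bach1 KO, 4.86, 4.99 and 5.75 in Bach2 KO, and 4.96, 4.46 and 4.93 in DKO. Every Bach1 KO mouse was below every WT mouse, and every Bach2 KO and DKO mouse was above every WT mouse. Bach1 KO mouse 1 was the lowest of all 12.

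H2-Ab1, the beta chain gene of I-A, was at 6.13, 6.31 and 5.99 in WT, 2.46, 3.02 and 3.16 in Bach1 KO, 6.55, 6.78 and 6.65 in Bach2 KO, and 6.65, 6.69 and 7.14 in DKO. The Bach1 KO mice were far below the rest, while the step from WT to the Bach2 KO and DKO mice was small but without overlap. H2-Ab1 is the only member with 2 probes. The dimmer probe gave differences from WT of -3.33 in Bach1 KO, 0.75 in Bach2 KO and 0.82 in DKO, with the same signs as the brighter one.

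H2-Eb1, the beta chain gene of the I-E molecule, was at 5.29, 5.16 and 5.01 in WT, 0.37, 1.49 and 1.48 in Bach1 KO, 6.88, 6.63 and 6.84 in Bach2 KO, and 6.71, 6.37 and 7.28 in DKO. Cd74, on chromosome 18, was at 4.13, 4.91 and 3.45 in WT, -0.36, 1.34 and 0.10 in Bach1 KO, 5.86, 6.03 and 5.17 in Bach2 KO, and 6.41, 6.17 and 5.33 in DKO. For these genes too the WT mice lay between the Bach1 KO mice and the Bach2 KO and DKO mice, with no overlap, and Bach1 KO mouse 1 was the lowest.

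**Figure D1:**
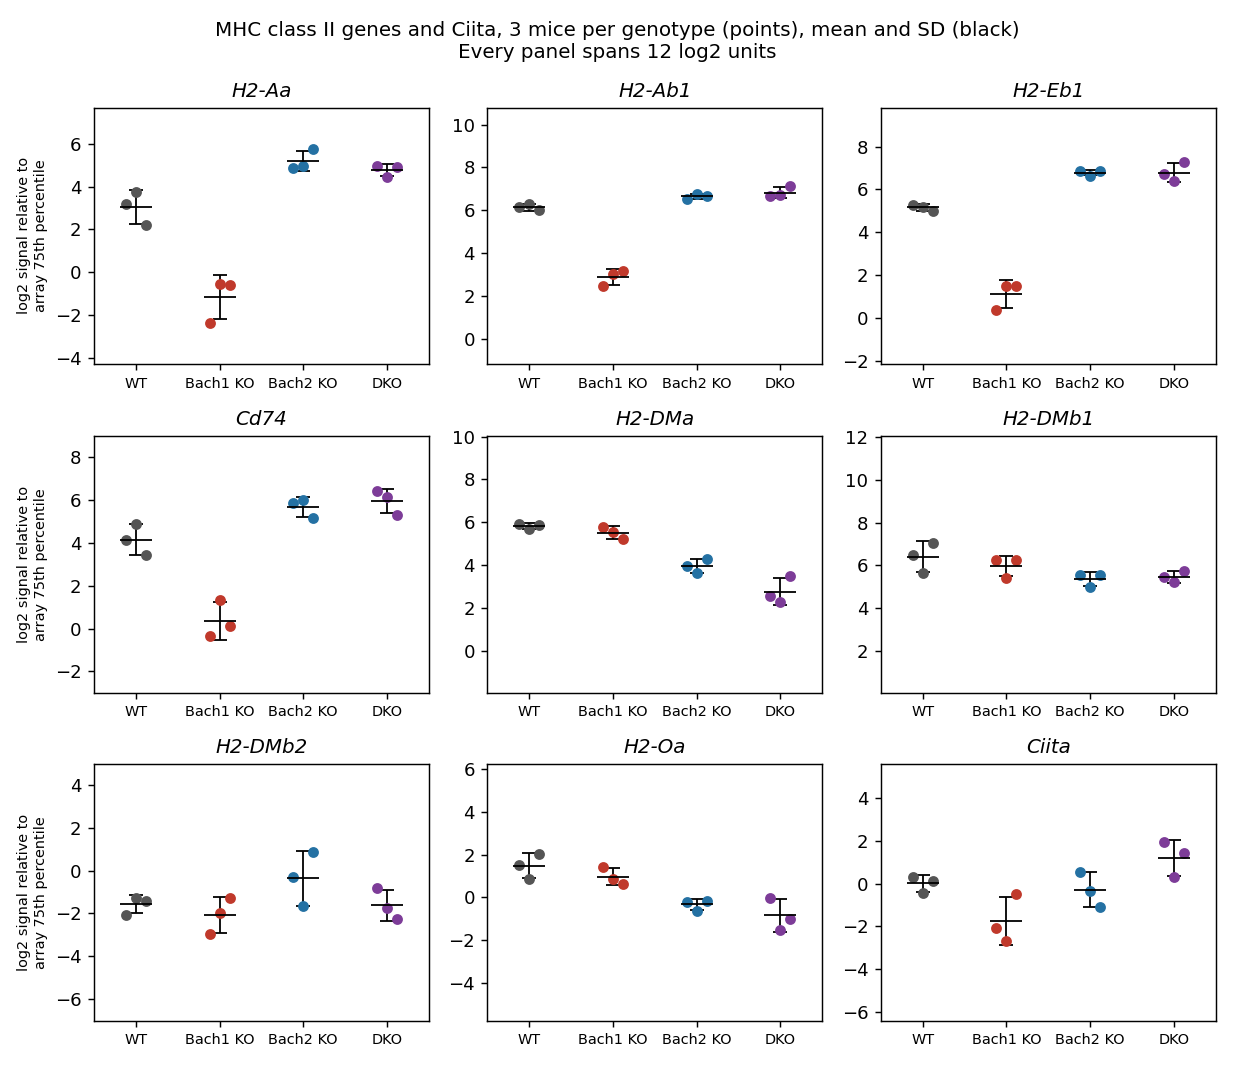
Level of each member in each mouse (log2 signal relative to the array's 75th percentile, vertical axis) by genotype, with 1 point per mouse and the mean and SD of 3 mice in black. H2-Aa, H2-Ab1, H2-Eb1 and Cd74 are lowest in Bach1 KO and highest in Bach2 KO and DKO, whereas H2-DMa, H2-DMb1 and H2-Oa are highest in WT.

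Loss of Bach1 alone was compared with WT in a limma fit over all 12 arrays, with Benjamini-Hochberg adjustment over the 23118 genes and transcripts tested. The 3 class II chains and Cd74 fell. H2-Aa was 4.20 ± 0.51 (SE, n = 3 and 3 mice) log2 units lower, an 18.4-fold difference (adjusted p = 0.0119). H2-Eb1 was 4.04 ± 0.31 lower, or 16.5-fold (adjusted p = 0.000248), and Cd74 3.80 ± 0.49 lower, or 14.0-fold (adjusted p = 0.0142). H2-Ab1 was 3.27 ± 0.22 lower, or 9.62-fold (adjusted p = 8.85e-05). These are 4 of 9 members, beside 0.0606% of all genes and transcripts (14 of 23118), a share from which nothing is read, and 1228 had an unadjusted p under 0.05. The median member difference was -1.76, beside -0.07 over all tested.

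The other 5 members did not pass in that comparison. All 9 differences were negative. The 95% interval of Ciita reached from -3.09 to -0.43, which lies below 0 before adjustment (unadjusted p = 0.0141, adjusted p = 0.654 in limma). It reached from -0.98 to 0.36 for H2-DMa, -1.21 to 0.33 for H2-DMb1, -1.89 to 0.90 for H2-DMb2 and -1.42 to 0.40 for H2-Oa, and these 4 do not include a fall as large as that of the 4 genes above. WT and Bach1 KO lay on the same slide, so these differences are unchanged within it, but with those 8 arrays alone only H2-Ab1 (adjusted p = 0.00467) and H2-Eb1 (0.00753) passed, and not H2-Aa (0.126) or Cd74 (0.116). Bach1 KO mouse 1 was the only Bach1 KO mouse on the row of the WT arrays. With the row on that slide as a further term the differences were therefore those of that mouse alone. They were -3.68 for H2-Ab1, -4.79 for H2-Eb1, -5.40 for H2-Aa and -4.52 for Cd74. In a fit of WT and Bach1 KO alone H2-Ab1 was the only member that passed.

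Single mice decided some of these calls. H2-Aa did not pass without WT mouse 1 (adjusted p = 0.0722), and its difference was -3.60 without Bach1 KO mouse 1. Cd74 did not pass without WT mouse 1 (0.0804), Bach1 KO mouse 1 (0.0528) or Bach1 KO mouse 3 (0.0562). H2-Ab1 and H2-Eb1 passed whichever mouse was left out.

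Loss of Bach2 alone gave 3 members that rose and 3 that fell against WT, 6 of 9, where 37.1% of all genes and transcripts passed. The risers were H2-Aa by 2.16 ± 0.51 log2 units (adjusted p = 0.00715), H2-Eb1 by 1.63 ± 0.31 (0.00234) and Cd74 by 1.53 ± 0.49 (0.0285). H2-Ab1 had a difference of 0.51 ± 0.22 and did not pass (0.0906). The members that fell were H2-DMa, H2-Oa and H2-DMb1, described below. The median member difference was 0.51, beside -0.30 over all tested.

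In DKO against WT, 4 members rose and 2 fell, 6 of 9, where 27.2% of all passed. H2-Aa was 1.74 ± 0.51 higher (adjusted p = 0.0259), H2-Ab1 0.68 ± 0.22 (0.0407), H2-Eb1 1.63 ± 0.31 (0.00253) and Cd74 1.81 ± 0.49 (0.0171). The median member difference was 0.68, beside -0.28 over all tested. Bach1 was lower in these mice by 1.44, as in Bach1 KO, so the chain genes were below WT in one genotype with low Bach1 and above it in the other.

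Several of these rises were small beside the spread. In Bach2 KO against WT, Cd74 did not pass without WT mouse 1 (adjusted p = 0.0703), WT mouse 3 (0.111), Bach2 KO mouse 1 (0.0808) or Bach2 KO mouse 2 (0.0870). In DKO against WT, H2-Aa did not pass without WT mouse 1 (0.0544), WT mouse 3 (0.102), DKO mouse 1 (0.0817) or DKO mouse 3 (0.0705), nor Cd74 without WT mouse 3 (0.0706), DKO mouse 1 (0.0703) or DKO mouse 2 (0.0586). H2-Ab1 in DKO passed only when the mouse left out was WT mouse 2, Bach2 KO mouse 3 or any Bach1 KO mouse, its highest adjusted p being 0.127 without DKO mouse 3. H2-Eb1 passed in each case.

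The Bach2 KO rises also changed when the slide and its rows were taken into account. On the slide shared with WT, H2-Eb1 was still 1.60 higher in Bach2 KO (adjusted p = 0.0162), while H2-Aa (1.88, 0.0662) and Cd74 (1.79, 0.0521) did not pass. With the row on that slide as a term no member passed in this comparison, and the differences were 0.08 for H2-Aa, 0.49 for H2-Eb1 and 0.71 for Cd74. All WT arrays were on 1 row and both of these Bach2 KO arrays on the other. Bach1 KO alone spans the rows, with mouse 1 on the WT row and mice 2 and 3 on the other. The row term thus rests on mouse 1 set against mice 2 and 3, and mouse 1 was the lowest for the chains and Cd74. An effect of the row cannot be told apart from that mouse.

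The scaling moved all genes in the Bach2 mutants. The median difference over all genes tested in Bach2 KO against WT was -0.15 after quantile normalization, 0.39 without scaling and -0.53 after subtracting the array median. In DKO against WT these were -0.12, 0.16 and -0.42. No member that passed reversed under any of the 3. H2-Ab1 in Bach2 KO was 1.36 higher after quantile normalization (adjusted p = 0.00108) and 1.20 higher without scaling (0.00358).

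**Figure D2:**
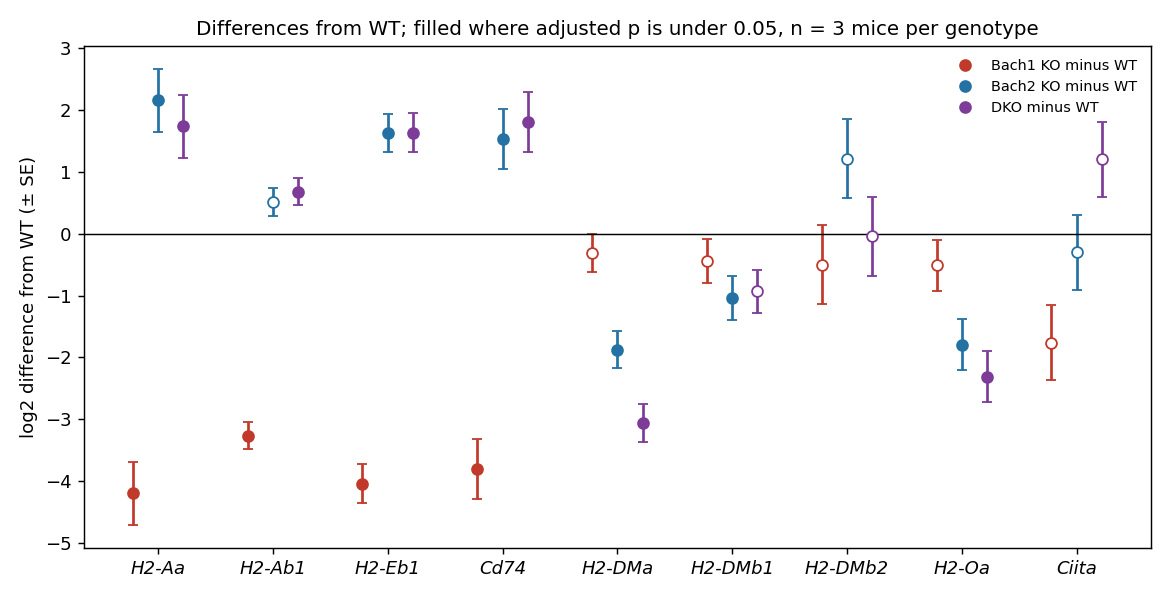
Log2 difference from WT (vertical axis, bars are SE) for each member in Bach1 KO, Bach2 KO and DKO, 3 mice per genotype, with filled points where the adjusted p was under 0.05. The chains and Cd74 lie between -4.20 and -3.27 in Bach1 KO and above 0 in Bach2 KO and DKO, while H2-DMa and H2-Oa lie below 0 in all 3.

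For the chains and Cd74 the single knockouts lay on either side of WT. In Bach2 KO against Bach1 KO, 4 members were higher and 2 lower, where 33.3% of all genes and transcripts passed. H2-Aa was 6.36 ± 0.51 log2 units (81.9-fold) higher in Bach2 KO, H2-Eb1 5.67 ± 0.31, Cd74 5.33 ± 0.49 and H2-Ab1 3.78 ± 0.22. Within the slide that holds both genotypes these were 6.08, 5.64, 5.59 and 3.78, all of which passed, and with the row on the slide as a term 5.48, 5.27, 5.23 and 3.57, which passed as well.

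DKO differed from Bach1 KO in the same way. Of the 9 members, 5 were higher in DKO and 2 lower, where 26.1% of all passed. H2-Aa was 5.94 ± 0.51 higher, H2-Eb1 5.68 ± 0.31, Cd74 5.61 ± 0.49 and H2-Ab1 3.95 ± 0.22, and Ciita was the fifth. These 7 calls stood whichever mouse was left out. The genes were chosen with low levels in Bach1 KO but not in DKO known, so nothing is read from the number that passed. Without Bach1 KO mouse 1, H2-Aa was 5.34 higher in DKO and 5.76 higher in Bach2 KO.

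DKO and Bach2 KO, which differ in Bach1, had no member that passed, where 3.56% of all genes and transcripts passed (824) and 4925 had an unadjusted p under 0.05. With these genotypes alone and the replicate number as a block, 1 member passed (H2-DMa, described below), and 1738 of all. The difference was 0.00 ± 0.31 for H2-Eb1 (95% interval -0.68 to 0.69), 0.17 ± 0.22 for H2-Ab1 (-0.32 to 0.65), 0.28 ± 0.49 for Cd74 (-0.78 to 1.34) and -0.42 ± 0.51 for H2-Aa (-1.54 to 0.70). These intervals leave room for differences between -1.54 and 1.34 log2 units, and none reaches the fall seen for the same genes in Bach1 KO against WT.

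The difference between the 2 Bach1 effects was tested as an interaction, DKO minus Bach2 KO less Bach1 KO minus WT. The genes were chosen with this pattern known, so nothing is read from the number that passed. It passed for 4 members, beside 0.675% of all genes and transcripts (156): H2-Ab1 at 3.43 ± 0.31 (adjusted p = 0.000781), H2-Eb1 at 4.05 ± 0.44 (0.00193), Cd74 at 4.08 ± 0.69 (0.0211) and H2-Aa at 3.78 ± 0.72 (0.04). The median member value was 3.26, beside 0.09 over all tested. The interaction uses the DKO slide, from which it cannot be told apart.

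The interaction calls for H2-Ab1 and H2-Eb1 stood whichever mouse was left out. H2-Aa passed only without WT mouse 3, Bach1 KO mouse 1 (where it was 3.18), Bach1 KO mouse 2 or Bach1 KO mouse 3, and its adjusted p reached 0.123 without Bach2 KO mouse 1. For Cd74 it did not pass without WT mouse 1 (0.0598), Bach2 KO mouse 1 (0.0626), Bach2 KO mouse 3 (0.0538), DKO mouse 1 (0.0657) or DKO mouse 2 (0.0575). After quantile normalization (H2-Aa 0.0754, Cd74 0.0527) and without scaling (0.0977 and 0.0570) H2-Aa and Cd74 did not pass.

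**Figure D3:**
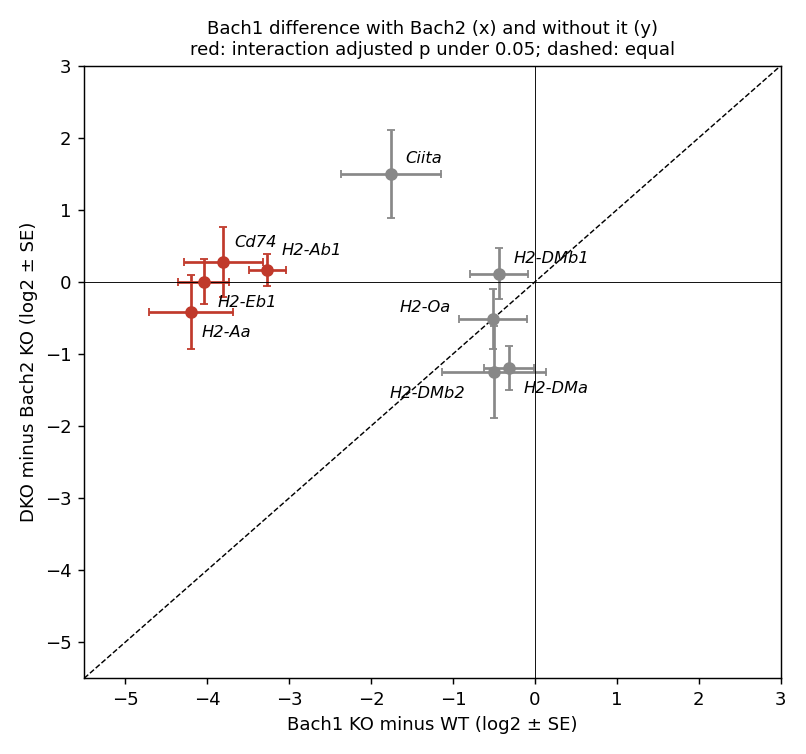
Difference in mice that have Bach2 (Bach1 KO minus WT, horizontal) against the difference in mice that lack it (DKO minus Bach2 KO, vertical), in log2 units with SE, 1 point per member. H2-Aa, H2-Ab1, H2-Eb1 and Cd74 (red, interaction passed) lie near -4 on the horizontal and near 0 on the vertical axis, away from the dashed line of equal differences.

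Ciita, the coactivator that class II genes need, was at 0.33, -0.42 and 0.13 in WT, -2.09, -2.68 and -0.48 in Bach1 KO, 0.54, -0.33 and -1.09 in Bach2 KO, and 1.92, 0.28 and 1.44 in DKO. The Bach1 KO mice were below all WT mice, narrowly in mouse 3, and the Bach2 KO mice overlapped with both. The order was DKO, WT, Bach2 KO and Bach1 KO, and no neighbours in it differed beyond their spread. Ciita passed only between its ends, at 2.96 ± 0.61 higher in DKO than in Bach1 KO (adjusted p = 0.00405). Against WT the differences were -1.76 ± 0.61 in Bach1 KO (0.654), -0.30 ± 0.61 in Bach2 KO (0.724) and 1.20 ± 0.61 in DKO (0.161).

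Bach1 KO mouse 3 carried much of the spread of Ciita. Without that mouse the interaction was 3.90 (adjusted p = 0.0483, against 3.26 and 0.136 with it), Bach2 KO was 2.10 higher than Bach1 KO (0.0217, against 1.46 and 0.0855), and DKO was 3.60 higher than Bach1 KO. That mouse was not an exception for the chains, where its values were the highest or the middle of the 3 Bach1 KO mice.

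Of the peptide exchange genes, H2-DMa, H2-Oa and H2-DMb1 did not share the pattern, and the spread of H2-DMb2 left it undecided. H2-DMa, the alpha chain of H2-DM, was at 5.94, 5.69 and 5.85 in WT, 5.78, 5.55 and 5.20 in Bach1 KO, 3.95, 3.63 and 4.28 in Bach2 KO, and 2.54, 2.26 and 3.47 in DKO. WT and Bach1 KO overlapped, Bach2 KO lay below them, and DKO lay below Bach2 KO. It fell against WT, with differences of -1.87 ± 0.31 log2 units in Bach2 KO (adjusted p = 0.000825) and -3.07 ± 0.31 in DKO (1.8e-05).

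The step of H2-DMa from Bach2 KO to DKO was -1.19 ± 0.31 and did not pass (adjusted p = 0.056). It passed in a fit of these 2 genotypes alone with the replicate number as a block (0.0393), without DKO mouse 3 (0.0136), after quantile normalization (0.0277), among the genes well above background on all 12 arrays (0.0429) and in the authors' deposited log2 values (0.0454). Within the slide shared with WT, the H2-DMa difference in Bach2 KO was -2.04 (adjusted p = 0.000869). With the row as a term it was -1.63 (0.0979).

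H2-Oa, the alpha chain of H2-O, was at 1.54, 0.87 and 2.02 in WT, 1.40, 0.87 and 0.62 in Bach1 KO, -0.19, -0.61 and -0.15 in Bach2 KO, and -0.01, -1.50 and -0.99 in DKO. All Bach2 KO and DKO mice were below all WT and Bach1 KO mice. It fell against WT, with differences of -1.80 ± 0.42 in Bach2 KO (adjusted p = 0.00637) and -2.31 ± 0.42 in DKO (0.0016). It was 1.28 ± 0.42 lower in Bach2 KO than in Bach1 KO (0.0336), a call that was lost without any of the 3 Bach2 KO mice or without Bach1 KO mouse 1 or 2 (adjusted p from 0.0550 to 0.121). Without scaling between arrays the difference of H2-Oa in Bach2 KO against WT was -1.11 and did not pass (0.134).

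H2-DMb1, the main beta chain of H2-DM, was at 6.50, 5.65 and 7.07 in WT, 6.24, 5.43 and 6.23 in Bach1 KO, 5.55, 4.99 and 5.54 in Bach2 KO, and 5.45, 5.21 and 5.75 in DKO. Mouse 2 was the lowest of each genotype, and WT mouse 2 was nearer to the mutants than to the other WT mice. Its fall of 1.05 ± 0.35 in Bach2 KO against WT passed (adjusted p = 0.0372) but was lost without WT mouse 1 (0.0955) or 3 (0.149) or any Bach2 KO mouse (0.0610 to 0.121). After quantile normalization it was -0.17 and without scaling -0.35, neither of which passed. In DKO against WT it was -0.93 ± 0.35 (0.0705), and -1.31 without WT mouse 2 (0.0104). With the replicate number as a block it passed as well (-0.93 ± 0.22, 0.0122), although the labels and arrays do not pair WT with DKO mice.

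H2-DMb2, the second beta chain, was at -2.06, -1.27 and -1.41 in WT, -2.96, -2.0 and -1.28 in Bach1 KO, -0.31, -1.67 and 0.88 in Bach2 KO, and -0.83, -1.76 and -2.27 in DKO. All 4 genotypes overlapped with at least 1 other, and it passed in no comparison. Its Bach2 KO values were spread over more than 2 log2 units, and without Bach2 KO mouse 2 the difference from WT was 1.86 (adjusted p = 0.0365) in place of 1.21. Probe sequences were not used here, so a signal shared between the closely related H2-DMb1 and H2-DMb2 cannot be told apart from that of either gene.

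Class II genes outside the 9 were higher without Bach2. H2-Ob, the beta chain of H2-O, was 3.09 ± 0.44 higher in Bach2 KO (adjusted p = 0.000318) and 2.08 ± 0.44 higher in DKO (0.00455) than in WT, with -0.05 ± 0.44 in Bach1 KO. Its partner H2-Oa fell in both of these. H2-Eb2, a relative of H2-Eb1, stayed at background on all WT and Bach1 KO arrays. It was at least 180-fold higher in Bach2 KO and at least 35.4-fold higher in DKO than in WT (adjusted p = 9.09e-07 and 5.72e-06), a bound set against the lowest signals called well above background, and its difference in DKO against Bach2 KO was -2.35 ± 0.58 (0.0495). Neither gene passed in Bach1 KO against WT. H2-Ea was not matched to a probe through RefSeq.

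Of the members, 7 lie together on chromosome 17 (GRCm38.p6), from H2-Oa (34092379 to 34095234) through H2-DMa (34119693 to 34139101), H2-DMb2 (34143229 to 34151553), H2-DMb1 (34153191 to 34160229), H2-Ab1 (34263227 to 34269418) and H2-Aa (34282744 to 34287823) to H2-Eb1 (34305867 to 34316674). Ciita is on chromosome 16 (10480014 to 10531064) and Cd74 on chromosome 18 (60803849 to 60812652). RefSeq places 14 genes from H2-Oa to H2-Eb1, of which Gm20506, a long non-coding RNA, has no probe. In Bach1 KO against WT, only H2-Ab1, H2-Aa and H2-Eb1, which are adjacent at one end of the region, passed among the 13 measured genes.

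The genes between the members moved in both directions without Bach2. Tap1, a subunit of the peptide transporter for class I molecules, was 3.13 ± 0.63 higher in Bach2 KO (adjusted p = 0.0029) and 2.82 ± 0.63 higher in DKO (0.0061) than in WT. Tap2, its partner, did not pass (-0.15 ± 0.34 and 0.22 ± 0.31). The immunoproteasome subunit Psmb9 fell, with differences of -1.42 ± 0.29 in Bach2 KO and -1.58 ± 0.29 in DKO. Psmb8, another such subunit, fell as well (-0.82 ± 0.29, 0.0461, and -0.90 ± 0.29, 0.0409). Brd2, a bromodomain protein gene, fell by 1.49 ± 0.48 in Bach2 KO (0.0307) and had -1.09 ± 0.48 in DKO (0.114). In Bach1 KO these 5 differences from WT lay between -0.32 and 0.03.

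**Figure D4:**
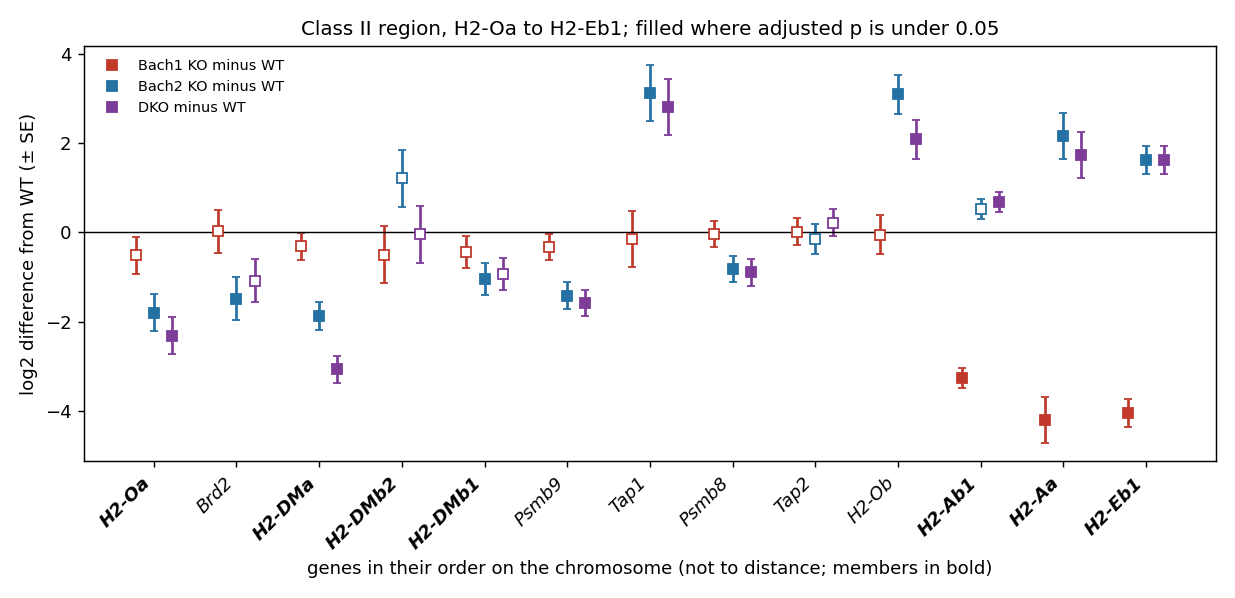
Log2 difference from WT (vertical axis, bars are SE) of the 13 measured genes from H2-Oa to H2-Eb1 in chromosomal order, in Bach1 KO, Bach2 KO and DKO, filled where the adjusted p was under 0.05. In Bach1 KO the fall is seen in H2-Ab1, H2-Aa and H2-Eb1, and the other genes lie near 0, while Bach2 KO and DKO hold both rises and falls.

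The regulators of class II transcription (the X and Y box factors, and the interferon and interleukin signals that act on Ciita) were given by a list of 21 genes, of which 20 were tested. None passed in Bach1 KO against WT (median difference -0.17), where 0.0606% of all passed. In Bach2 KO 6 rose and 4 fell, and in DKO 3 rose and 2 fell. Over all genes and transcripts 12.4% rose and 24.7% fell in Bach2 KO, and 10.6% rose and 16.6% fell in DKO, so the 5 of 20 in DKO are near the 27.2% that passed overall. Socs1, an inhibitor of cytokine signalling, was 4.48 ± 0.33 higher in Bach2 KO and 5.01 ± 0.33 higher in DKO. Irf4, a transcription factor of activated macrophages and dendritic cells, was 4.0 ± 0.66 and 2.66 ± 0.66 higher.

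Prdm1, a repressor of Ciita in plasma cells, fell, with differences of -1.97 ± 0.35 in Bach2 KO and -2.41 ± 0.35 in DKO. Irf8, an interferon regulatory factor, fell too (-1.39 ± 0.20 and -1.07 ± 0.20). In Bach1 KO against WT the differences of Socs1 (-0.91 ± 0.33, adjusted p = 0.706) and Irf4 (-2.09 ± 0.66, 0.542; well above background on 2 of 3 Bach1 KO arrays) did not pass.

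Genes of class II peptide processing and turnover, 15 tested of 15, had none that passed in Bach1 KO against WT (median -0.26). In that comparison 0.0606% of all passed. In Bach2 KO 1 rose and 7 fell, where 24.7% of all genes and transcripts fell, and in DKO 1 rose and 5 fell, where 16.6% fell. The riser was the endopeptidase Lgmn (0.67 ± 0.21 in Bach2 KO and 0.89 ± 0.21 in DKO). The cathepsin Ctsf fell (-2.22 ± 0.35 and -3.63 ± 0.35), and its difference in DKO against Bach2 KO was -1.41 ± 0.35 (adjusted p = 0.0488). Ctsh, another cathepsin, fell (-0.91 ± 0.21 and -0.90 ± 0.21), as did Marchf1, the ubiquitin ligase that removes class II molecules from the surface (-0.89 ± 0.26 and -0.99 ± 0.26).

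Genes known to be induced by interferon gamma, a cytokine that raises Ciita in macrophages, moved in both directions, as genes did overall. Of 18 tested of 19, none passed in Bach1 KO against WT (median -0.27), where 0.0606% of all passed. Bach2 KO had 5 higher and 6 lower, beside 12.4% and 24.7% of all, and DKO 4 higher and 3 lower, beside 10.6% and 16.6%. Nlrc5, the transactivator of class I genes, was 2.89 ± 0.41 higher in Bach2 KO and 2.77 ± 0.41 higher in DKO, and the guanylate-binding protein gene Gbp3 was 1.97 ± 0.28 and 1.03 ± 0.28 higher. The chemokine Cxcl9 fell (-2.38 ± 0.34 and -2.62 ± 0.34), and Psmb9, given above, also belongs to this list.

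The 4 genes with the shared profile were compared with every other measured gene by the root mean square distance, over the 12 arrays, between a gene's centred log2 levels and the mean centred profile of H2-Aa, H2-Ab1, H2-Eb1 and Cd74. The 4 themselves lay at 0.28 (H2-Eb1), 0.42 (Cd74), 0.49 (H2-Aa) and 0.65 (H2-Ab1). Of 13553 other named genes the nearest were Maob (0.77), Oas1g (0.86), Pakap (0.89), St3gal5 (0.90) and Rgs1 (0.91). Ciita lay at 1.56, H2-DMb2 at 1.91, H2-DMb1 at 2.48, H2-Oa at 2.92 and H2-DMa at 3.17. The 4 enter the profile they are measured against, so their own distances are small in part by construction and are not set against those of other genes. The 5 nearest genes were picked for the smallest distances, so nothing is read from Ciita lying further away.

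None of the 5 nearest genes passed in Bach1 KO against WT, where the differences ran from -3.56 ± 0.59 for Maob (adjusted p = 0.0761) to -1.73 ± 0.36 for Rgs1 (0.184). On the 3 Bach1 KO arrays the probes of Maob, Oas1g and Pakap did not rise above background, so those levels are bounds. The probe of St3gal5 was well above background on 1 of these arrays. The distances, differences and interaction values of these genes thus rest on Bach1 KO signals at or near background. Oas1g, an interferon-induced enzyme gene, was the only one of the 5 that passed the interaction (4.05 ± 0.76, adjusted p = 0.0353).

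The cell type label was read against markers. All 17 alveolar macrophage markers were well above background on every WT, Bach1 KO and Bach2 KO array, and on every DKO array but for Krt19, which was so on 1 of 3. None passed in Bach1 KO against WT (median -0.26), where 0.0606% of all passed. The log2 of their summed level was between 10.96 and 11.25 in WT and between 10.45 and 11.14 in Bach1 KO. In the Bach2 mutants the list was lower, at 9.38 to 9.89 in Bach2 KO and 9.28 to 9.92 in DKO. In Bach2 KO 14 of 17 fell and in DKO 12 of 17, where 24.7% and 16.6% of all fell, and none rose. Siglecf, a surface lectin of these cells, had differences of -6.33 ± 0.47 in Bach2 KO and -8.29 ± 0.47 in DKO, the keratin gene Krt79 -5.47 ± 0.29 and -8.42 ± 0.29, and the ribonuclease gene Ear1 -2.03 ± 0.26 and -4.43 ± 0.26. Krt19, another keratin gene, fell by 4.62 ± 0.68 in Bach2 KO.

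Dendritic cells and monocyte-derived macrophages also carry class II, and their markers moved with the class II genes in the Bach2 mutants. Of 13 dendritic cell markers tested (of 15), 9 rose and 1 fell in Bach2 KO, and 8 rose and 1 fell in DKO, where 12.4% and 10.6% of all genes and transcripts rose. Cd209a, a lectin of dendritic cells, was not well above background in WT and was at least 174-fold higher in Bach2 KO. Ccr7, the receptor for migration to lymph nodes, was 7.21 ± 0.84 higher, Flt3, a growth factor receptor, 5.02 ± 0.49, and Itgam, the CD11b integrin, 3.70 ± 0.41. Of 11 interstitial macrophage and monocyte markers (of 12), 7 rose and 1 fell in Bach2 KO and 8 rose in DKO, beside the same shares. The complement gene C1qb was 6.51 ± 0.39 higher in Bach2 KO, and the transglutaminase gene F13a1 at least 227-fold. C1qa, its partner, also rose (adjusted p = 4.85e-06), but it was well above background on 1 of 3 WT arrays and the size of its difference is not given.

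The summed dendritic cell level was 6.62 to 7.49 in WT, 6.38 to 6.87 in Bach1 KO, 7.05 to 7.22 in Bach2 KO and 7.09 to 7.34 in DKO. It was lower in every Bach1 KO mouse than in every Bach2 KO and DKO mouse, while WT overlapped with all of them. The sums add linear levels, so the brightest genes weigh most. Ccr7 and Itgam were at -2.29 and 1.17 in WT and at 4.92 and 4.87 in Bach2 KO. Sirpa, the brightest dendritic cell marker in WT, had means of 7.02, 6.49, 5.61 and 6.04 in WT, Bach1 KO, Bach2 KO and DKO. The WT overlap thus does not show how the dimmer markers moved. The interstitial macrophage and monocyte sum was 6.62 to 6.74, 6.42 to 6.60, 7.09 to 7.56 and 7.27 to 7.73 in the same order, with Bach2 KO and DKO overlapping each other and lying above WT and Bach1 KO. Xcr1, which marks a class of dendritic cells, was well above background on only 1 array, from DKO. The part of these markers in the class II differences between Bach1 KO, WT and the Bach2 mutants was not tested.

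In Bach1 KO against WT no marker of any of the 6 lists passed, where only 0.0606% of all genes and transcripts passed, so nothing is read from that. The median differences were 0.04 for dendritic cells and -0.04 for interstitial macrophages and monocytes. Single dendritic cell markers lay on both sides of the median. Batf3 had -1.50 ± 0.36 (adjusted p = 0.276), Ccr7 -2.11 ± 0.84 (0.800, well above background on 2 of 3 Bach1 KO arrays) and Ly75 0.87 ± 0.64. The summed interstitial macrophage and monocyte level was lower in every Bach1 KO mouse than in every WT mouse, by far less than the chains (6.42 to 6.60 against 6.62 to 6.74). The part of that in the fall of the chains was not tested.

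B cells carry class II as well. Of 4 B cell markers tested (of 11), only Cd79b passed against WT, at least 20.0-fold higher in Bach2 KO and at least 19.8-fold in DKO, while Pax5, Fcrla and Cr2 did not pass and Ebf1 stayed at background on all arrays. Of 7 T cell markers (of 10), 3 rose and 1 fell in Bach2 KO (Lck 3.62 ± 0.40 higher, Cd3g higher but well above background on 1 of 3 WT arrays, Cd3d at least 4.95-fold higher, Cd6 at -1.27 ± 0.43), and Cd247 stayed at background on all of them. Of 8 alveolar type II cell markers (of 10), Etv5 rose by 2.40 ± 0.30 and Epcam and Abca3 fell (-4.73 ± 0.43 and -1.35 ± 0.23) in Bach2 KO, while Sftpa1 did not pass. The B cell sums were between -2.11 and -0.67 in WT, -1.74 and -0.28 in Bach1 KO, -0.59 and -0.06 in Bach2 KO, and -0.34 and 0.10 in DKO. The T cell sums were 0.61 to 1.58, 0.83 to 1.54, 1.94 to 2.02 and 1.92 to 2.25 in that order, and the alveolar type II sums 6.05 to 6.28, 5.78 to 6.05, 5.64 to 5.91 and 5.56 to 6.03. Of all genes and transcripts 37.1% passed in Bach2 KO against WT, so nothing is read from the counts of these lists. The B cell and alveolar type II sums of the Bach2 mutants overlapped with those of Bach1 KO. Only the T cell sums lay apart from both WT and Bach1 KO. The part of these lists in the class II differences was not tested.

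**Figure D5:**
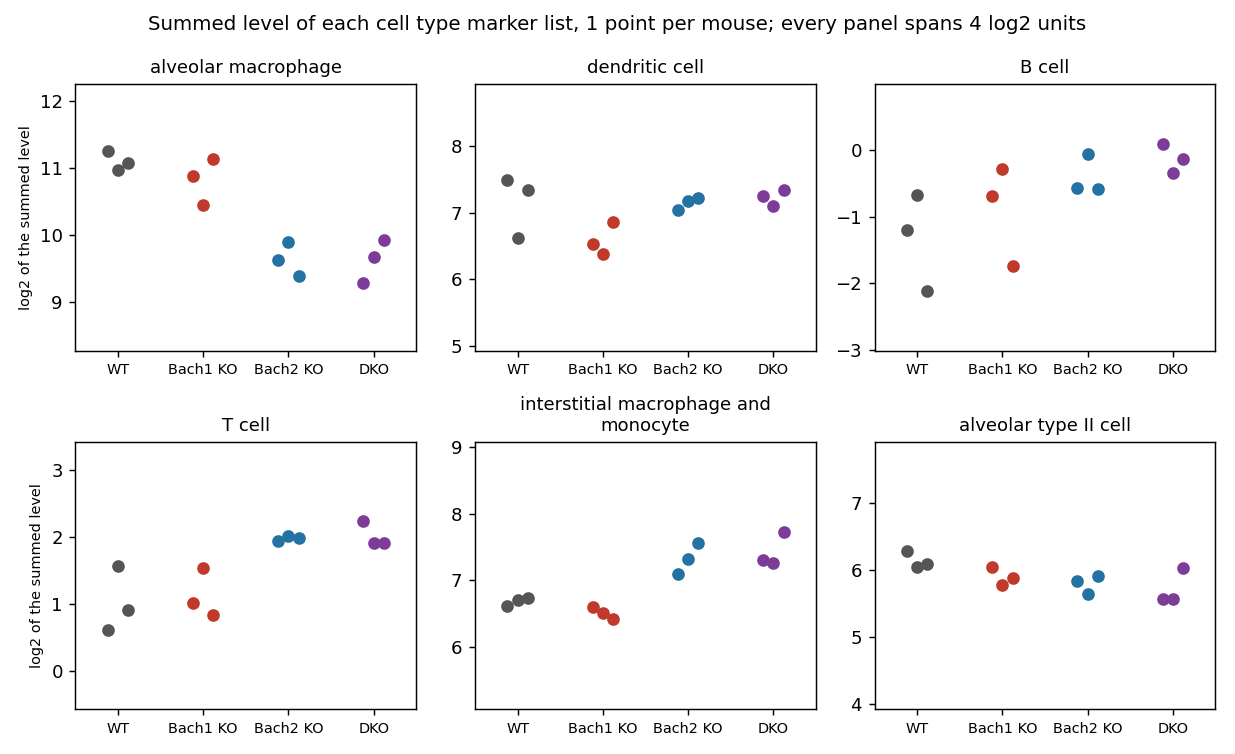
Log2 of the summed level of each marker list (vertical axis) by genotype, 1 point per mouse. Alveolar macrophage markers are lower and interstitial macrophage and monocyte markers higher in Bach2 KO and DKO than in WT and Bach1 KO, whereas the dendritic cell sums of WT overlap with those of every other genotype.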

How the data were processed

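RNA of sorted alveolar macrophages was hybridised to 12 one-colour arrays, 1 per mouse. The deposited scanner files hold an intensity per spot, background-subtracted and detrended per the file headers, with no scaling between arrays. The headers name Agilent Feature Extraction 10.7.3.1 and the submitters' processing notes 9.1. The authors also deposited log2 values of 20850 probes, of which 20802 matched a non-control probe. Each probe has a median of 0 there, and columns correlated at 0.999 to 1.00 with probe-centred scanner values. Column medians were 0.09, 0.01 and 0.25 in WT, 0.19, 0.08 and 0.19 in Bach1 KO, -0.04, -0.10 and -0.10 in Bach2 KO, and -0.25, -0.17 and -0.11 in DKO. The sources used here do not give its scaling. It holds 6 of the 9 members and served as an alternative.

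Intensities were put on the log2 scale minus each array's 75th percentile, outlier spots were left out, and 30878 of 55681 probes that were well above background on all 3 arrays of a genotype were kept. Accessions were named through RefSeq (GRCm38.p6), which named 26413 probes by 1 gene, and the brightest probe stood for a gene. limma 3.58.1 (R 4.3.3) fitted a mean per genotype over 12 arrays (lmFit, eBayes with a trend, 8 residual degrees of freedom), and the threshold was an adjusted p under 0.05 (Benjamini-Hochberg, over 23118 genes and transcripts). The 6 pairwise comparisons and the interaction were made. The fit was also run on simulated data with independent noise and no slide or row differences, so that run does not bear on those limits.

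The members and lists were chosen with earlier results of these data known. Named genes are the 9 members, up to 4 genes per other list with the smallest adjusted p, all other class II genes, the genes between members on chromosome 17, the 5 nearest profiles, and Bach1 and Bach2. One gene that this rule names is not reported here. The labels do not say that replicate numbers pair mice, and same-numbered arrays correlated over 0.1 in all 3 pairs in only 1 of the 6 pairs of genotypes, Bach2 KO and DKO (r from 0.116 to 0.123). That comparison was also fitted with the number as a block, a choice made after seeing the data. Alternatives covered scaling, background, filters, probes, slide, replicates and the fit. The planned background correction on mean spot signals was not run, and one on median spot signals took its place, a choice made after seeing the data.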

Additional observations from a re-analysis of the deposited data

Results flagged for a closer look

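The difference that goes with Bach1 was not the same with and without Bach2 for 4 members, by the interaction given above. This pattern was known when the genes were chosen, so the values describe it and are not independent evidence. It was more positive without Bach2 by 4.08 log2 units for Cd74, 3.78 for H2-Aa, 3.43 for H2-Ab1 and 4.05 for H2-Eb1. All DKO arrays share a slide that holds no other genotype, from which these values cannot be told apart.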

How the results depend on the processing

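Leaving out 1 mouse at a time, the number of the 9 members that passed ranged from 2 to 4 in Bach1 KO against WT, 4 to 6 in Bach2 KO against WT, 3 to 7 in DKO against WT, 0 to 1 in DKO against Bach2 KO, 5 to 8 in Bach2 KO against Bach1 KO and 2 to 5 for the interaction, and stayed at 7 in DKO against Bach1 KO. Bach1 KO against WT had 2 members with the authors' deposited log2 values (which hold 6 members), 2 on the shared slide alone, and 1 with the 2 groups alone. Bach2 KO against WT had 3 on that slide and 0 with its row, a term that rests on Bach1 KO mouse 1 set against mice 2 and 3. DKO against WT had 3 without WT mouse 3 and Bach1 KO mouse 3 together. DKO against Bach2 KO had 1 after quantile normalization, with the deposited values and among genes well above background on all 12 arrays. The interaction had 2 after quantile normalization, 2 without scaling and 2 with the deposited values. The cause of these was not tested. Over single members and alternatives, 1587 values kept direction and side of the threshold, 97 lost a call, 19 gained one and 31 changed sign, none of them a value that had passed.

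Sign changes of values that had not passed were as follows. In DKO against Bach2 KO, quantile normalization gave -0.17 for H2-Ab1, -0.30 for H2-Eb1 and -0.17 for H2-DMb1, no scaling gave -0.086, -0.25 and -0.14, and the deposited values gave -0.0036 for H2-Eb1. H2-DMb1 was at 0.11 in Bach2 KO against Bach1 KO after quantile normalization. Ciita in Bach2 KO against WT was at 0.39 without scaling and 0.10 on the shared slide, where the slide row turned H2-Ab1 to -0.11 and H2-DMb2 to -0.73. H2-DMb2 in DKO against WT was at 0.40 without scaling and 0.042 without WT mouse 3 and Bach1 KO mouse 3. The interaction of H2-Oa was 0.15 with the array median and 0.016 with normexp on median signals. Leaving out 1 mouse, H2-DMb2 in DKO against WT ranged from -0.44 to 0.29, the H2-Oa interaction from -0.42 to 0.33, H2-Eb1 in DKO against Bach2 KO from -0.24 to 0.21, H2-DMb1 there from -0.074 to 0.24, and Ciita in Bach2 KO against WT from -0.72 to 0.10.

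The deviations of same-numbered mice correlated over 0.1 in 6 of 18 pairs (r from -0.14 to 0.39), and those of other mice in 5 of 36 (-0.27 to 0.20). All 3 Bach2 KO and DKO pairs were among the 6, against 0 of 6 with different numbers. With the replicate number as a block, 4, 6, 7, 7, 0, 6 and 3 members passed in Bach1 KO, Bach2 KO and DKO against WT, DKO against Bach1 KO, DKO against Bach2 KO, Bach2 KO against Bach1 KO and the interaction. That fit gained H2-DMb1 in DKO against WT (adjusted p = 0.0122) and lost the H2-Aa interaction (0.0669), and changed no other member's call. With DKO and Bach2 KO alone and the replicate number as a block, 1 member passed (H2-DMa), and 1738 of all genes in place of 824.

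Over all genes, 14 passed in Bach1 KO against WT, 7 to 86 with 1 mouse left out, and 29 without WT mouse 3 and Bach1 KO mouse 3. There were 27 after quantile normalization, 7 with the stricter filter, 2 with the 2 groups alone, and 4 on the shared slide. In DKO against Bach2 KO 824 became 293 to 1063, 1383 (without those 2 mice), 1350 (quantile), 1445 (deposited values) and 1883 (the 2 groups alone). The interaction's 156 became 75 to 265, 242 (without those 2 mice) and 90 (stricter filter). On the shared slide without and with its row, Bach2 KO against WT had 4930 and 520 in place of 8581, and Bach2 KO against Bach1 KO 4193 and 2379 in place of 7687. Without scaling, Bach2 KO against WT had 4777 higher and 2165 lower in place of 2871 and 5710, DKO against WT 3138 and 1844 in place of 2444 and 3840, and DKO against Bach1 KO 2722 and 2006 in place of 2509 and 3530. Signal near background limits H2-Eb2, Bach2, Maob, Oas1g, Pakap and St3gal5, among others, and 3 mice per genotype limit the precision throughout.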
